A study of Rattus norvegicus with 17 samples.

Results

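The 35 genes described here encode the machinery with which the endoplasmic reticulum (ER) takes in, folds and discards secreted and membrane proteins, and the stress genes that respond when that machinery is overloaded. They were chosen by name and function, with earlier results of these data known, and each was read from the probe sets that the platform annotation assigns to that gene alone. Of the 35, 33 had such a probe set, 49 in all, and all 33 passed the filter on low values, out of 10665 genes tested. The 16 lumenal chaperones and folding enzymes, 5 genes of ER-associated degradation, 4 genes of the translocon and 2 transcription factors of the unfolded protein response were kept apart from 5 stress genes of the Atf4 and Ddit3 type. The cytosolic heat shock genes were represented by 1 of 3, Hsph1, because the probe set of Hspa1b is shared with Hspa1a and the probe sets of Hsp90aa1 are shared with Hsp90aa1-ps17. No values are given for those 2 genes.

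Proteins that enter the secretory pathway pass through the Sec61 channel into the ER lumen, where chaperones of the Hsp70 and Hsp90 families, the lectin chaperones and the protein disulfide isomerases fold them, and where those that fail are retrotranslocated and degraded. When unfolded protein accumulates, the sensors Ire1 and Atf6 raise the genes of the lumenal machinery through Xbp1 and cleaved Atf6, while the kinase Perk raises Atf4 and, through it, Ddit3, Trib3, Asns and Chac1. Cytosolic heat shock genes answer to a separate factor, Hsf1, and mesenchymal tissues that lay down collagen carry a large ER folding load.

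The tissue was the gubernaculum, the ligament that draws the testis down, taken on gestational day 17 from male fetuses of Long Evans rats. Every culture held 2 bulbs and spent 24 h in hormone-free medium with serum and an insulin, transferrin and selenium supplement. A further 24 h followed without added hormone (6 control arrays), with 10 nM insulin-like 3 (Insl3; 3 arrays used of 5), or with 100 nM Insl3 (6 arrays). Insl3 is the peptide hormone of fetal Leydig cells that acts on the gubernaculum. The labels call the replicates biological and give 1 Affymetrix array to each. The 10 nM replicates 4 and 5, which the submitters marked as outliers after a principal component analysis and low cRNA yields of 25.66 and 33.68 µg, are given as values only, apart from 1 alternative fit that includes them.

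Values are GCRMA log2 signals per probe set, so levels are not compared between genes. The tissue is bulk, and fewer cells of a type and less RNA per cell cannot be told apart. Of 11 gubernaculum mesenchyme markers with a probe set, 9 were above the filter value, Esr1 and Hoxd11 were at or under it in all kept arrays, and the list averaged 9.62 ± 0.05 in controls, 9.79 ± 0.02 at 10 nM and 9.93 ± 0.12 at 100 nM (SD, n = 6, 3 and 6). The Insl3 receptor gene Rxfp2 was not analysed here. The 10 erythroid markers with a probe set, of which Rhag was at or under the filter value throughout, averaged 8.40 ± 0.78 in controls, 8.09 ± 0.60 at 10 nM and 6.65 ± 0.69 at 100 nM. The 4 granulocyte markers averaged 7.70 ± 1.74, 8.04 ± 1.35 and 4.90 ± 1.17 in the same order, and the 12 leukocyte and macrophage markers 9.28 ± 0.16, 9.18 ± 0.24 and 8.72 ± 0.23. Of 5 plasma and B cell markers with a probe set, Mzb1, Jchain and Cd79b lay at or under the filter value of 2.28 in every kept array. Prdm1 did not pass the test at either dose. Sdc1, a proteoglycan of plasma cells that epithelia also carry, rose by 0.53 log2 units at 100 nM and 0.43 at 10 nM (adjusted p = 0.0019 and 0.0197, limma), with all arrays above the controls. Replicates 1, 2 and 6 of the control and 100 nM groups also stood apart from replicates 3, 4 and 5 on the main within-group component (27.3% of the remaining variance). No batch is named for it in the labels, and values within each set are given where they matter.

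Promoters of 6 of the 12 lumenal genes with a window held the sequence element that the unfolded protein response is known to use. It is shown here because none of the Atf4 and Ddit3 type genes held it in the windows searched. RefSeq windows of the rat assembly GRCr8, from 250 bases before to 50 bases after each gene's start, were matched for 26 of the 35 genes. The ER stress element was searched on both strands. It was present in 7 of the 26 windows (26.9%), against 21 of 27457 genes with a window (0.0765%). The element is known from this response and the members were chosen by function, so the share describes the list and is not a result of the cultures. The 7 were Xbp1 and the lumenal genes Hspa5, Hsp90b1, Calr, Canx, Dnajc3 and Creld2, while 0 of the 5 Atf4 and Ddit3 type windows held it. The 8 matches follow, each read 5′ to 3′ on the strand that carries it, with the fixed letters of the element in capitals.
Hspa5, 43 bases before the start, gene strand: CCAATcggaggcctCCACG
Hsp90b1, 176 bases before the start, gene strand: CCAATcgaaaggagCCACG
Hsp90b1, 72 bases before the start, opposite strand: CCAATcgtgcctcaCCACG
Calr, 232 bases before the start, opposite strand: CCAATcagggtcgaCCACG
Canx, 230 bases before the start, gene strand: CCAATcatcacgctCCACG
Dnajc3, 133 bases before the start, gene strand: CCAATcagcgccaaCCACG
Creld2, 145 bases before the start, opposite strand: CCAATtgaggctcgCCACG
Xbp1, 65 bases before the start, gene strand: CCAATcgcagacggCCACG

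A second form of the element, searched on both strands, was found in Dnajb11, Hyou1 and Herpud1, 3 of 26 windows (11.5%), against 0.0619% of all genes with a window. Together the forms were present in 10 of the 26 windows (38.5%), and in 8 of the 12 lumenal ones, against 0.138% of all genes with a window. They were present in 6 of the 11 genes that rose at 100 nM and have a window (Hsp90b1, Calr, Canx, Dnajb11, Creld2 and Xbp1). Of the 15 other members with a window 4 held them (Hspa5, Dnajc3, Hyou1 and Herpud1). These counts do not separate response from class, because the other members include most Atf4 and Ddit3 type genes, where 0 of 5 windows held either form. Lumenal genes with a form were found both among those that rose and among those that did not pass. The shorter ATF and cyclic AMP element TGACGT, on either strand, was in 6 of 26 windows (23.1%; Hspa5, Canx, Dnajb9, Dnajb11, Hyou1 and Hsph1), against 8.68% of all genes with a window. The amino acid response element TGATGNAA, on either strand, was in Herpud1, Trib3 and Chac1, 11.5% against 4.16%. The heat shock element, searched on both strands, was in Hsph1 alone, 3.85% against 0.794%. A match is a description of letters and not a site of binding, and the absence of a match says only that these letters are not in the window.

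Whole windows are shown for 4 genes that differ in class and in response, with every element searched for in capitals as it reads on the gene's strand, so that an element on the opposite strand appears as its reverse complement. Hsp90b1, a lumenal chaperone gene that rose at 100 nM, has a pair of ER stress elements. Hspa5 has 1 beside a TGACGT and did not pass the test. Chac1, the stress gene that rose at 100 nM, has an amino acid response element and no ER stress element. Hsph1, the cytosolic heat shock gene, has a heat shock element and a TGACGT on the opposite strand. The windows are chr7:23012244-23012543 (minus strand) for Hsp90b1, chr3:38452766-38453065 (plus strand) for Hspa5, chr3:126795881-126796180 (plus strand) for Chac1 and chr12:10427118-10427417 (plus strand) for Hsph1, all in GRCr8.
Hsp90b1: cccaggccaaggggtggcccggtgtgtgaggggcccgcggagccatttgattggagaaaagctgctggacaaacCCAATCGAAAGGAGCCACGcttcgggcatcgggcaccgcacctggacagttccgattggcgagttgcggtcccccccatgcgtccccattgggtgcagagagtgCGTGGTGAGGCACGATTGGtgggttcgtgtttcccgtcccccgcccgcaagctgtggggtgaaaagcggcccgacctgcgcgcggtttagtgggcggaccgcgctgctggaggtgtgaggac
Hspa5: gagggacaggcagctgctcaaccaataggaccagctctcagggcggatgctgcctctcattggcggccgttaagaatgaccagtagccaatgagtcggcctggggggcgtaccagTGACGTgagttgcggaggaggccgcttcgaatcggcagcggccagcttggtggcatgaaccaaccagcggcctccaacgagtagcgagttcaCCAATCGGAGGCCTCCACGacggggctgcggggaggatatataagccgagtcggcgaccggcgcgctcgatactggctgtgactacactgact
Chac1: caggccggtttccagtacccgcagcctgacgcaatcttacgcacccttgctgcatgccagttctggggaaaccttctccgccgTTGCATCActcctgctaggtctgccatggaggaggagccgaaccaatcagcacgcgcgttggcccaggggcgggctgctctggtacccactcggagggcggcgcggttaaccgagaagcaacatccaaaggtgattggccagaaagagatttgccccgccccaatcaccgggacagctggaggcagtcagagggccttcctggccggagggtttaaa
Hsph1: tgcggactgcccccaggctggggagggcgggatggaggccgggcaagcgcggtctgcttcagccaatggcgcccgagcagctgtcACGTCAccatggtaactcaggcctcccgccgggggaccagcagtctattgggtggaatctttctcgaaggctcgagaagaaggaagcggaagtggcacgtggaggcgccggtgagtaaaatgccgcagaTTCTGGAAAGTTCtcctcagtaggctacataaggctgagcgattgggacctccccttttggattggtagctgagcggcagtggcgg

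At 100 nM Insl3 the lumenal chaperone and folding genes were higher by small amounts, with 11 of 16 passing the test and none lower, while 1 of the 5 Atf4 and Ddit3 type genes passed. Against control, 16 of the 33 genes rose and none fell at an adjusted p under 0.05 (limma, Benjamini-Hochberg over 18938 probe sets), where 8.15% of all genes tested rose and 3.98% fell. At an unadjusted p under 0.05, 19 members were higher and 0 lower, and 27 had a positive change, against 55.3% of all genes tested. The median log2 change was 0.21 over the 33 genes, against 0.02 over all genes tested. The arrays at 100 nM were all above the controls for 10 of the 33, against 4.51% of all genes tested.

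The number of calls at 100 nM was lower with the erythroid markers in the fit and within the sets of replicates, while the size of the lumenal change moved little and that of the Atf4 and Ddit3 type genes moved more. Of 9 tested erythroid markers 6 fell at 100 nM, and with their mean as a covariate 0 of 33 members passed the test (limma; 12 higher and 0 lower at an unadjusted p under 0.05), where 2.59% of all genes rose, with a lumenal median of 0.20 against 0.23 without the covariate. The median of the 5 Atf4 and Ddit3 type genes was 0.43 in that fit, above the lumenal one, against -0.03 without the covariate. Of 4 granulocyte markers 3 fell at 100 nM (median log2 change -3.01), as did 5 of 11 tested leukocyte and macrophage markers (median -0.34), and the part of these in the member changes was not tested. Within replicates 1, 2 and 6, 3 arrays against 3, 0 members passed (13 higher and 0 lower unadjusted), where 0.478% of all genes rose. Within replicates 3, 4 and 5, 8 members rose, where 6.22% of all genes rose. The lumenal median was 0.24 in either set. Of the 16 lumenal genes, 16 had a positive change in replicates 1, 2 and 6 and 14 in replicates 3, 4 and 5. All 16 genes called over the 6 arrays had a positive change in both sets, but they were selected on these same arrays, which makes that outcome likely beforehand.

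**Figure D1:**
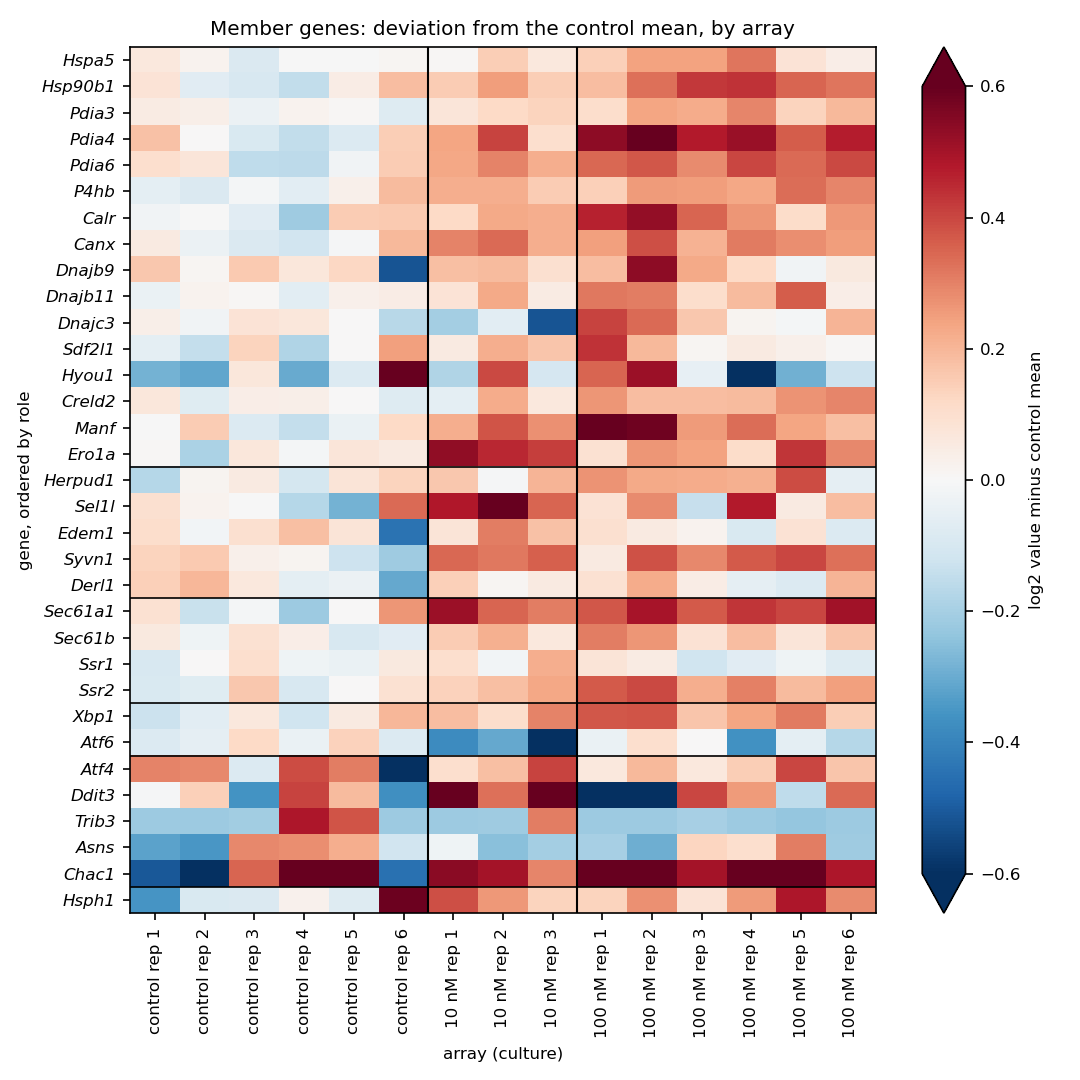
Log2 change of each tested member (rows, grouped by role) from its control mean in each of the 15 kept arrays (columns, control, 10 nM and 100 nM, with replicate numbers); colour gives the log2 difference. In each of the 6 arrays at 100 nM, 13 to 16 of the 16 lumenal rows are above their control mean, with Hyou1 above it in 2 of the 6 arrays, while the rows of Atf4, Ddit3 and Chac1 differ between arrays of the same group.

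Of the 16 lumenal genes 11 rose at 100 nM and none fell, by 1.15 to 1.41 times, where 8.15% of all genes tested rose. For 8 of the 16 all arrays at 100 nM lay above all controls, against 4.51% of all genes tested. The disulfide isomerases, which form and reshuffle the disulfide bonds of secreted proteins, all rose. Pdia4 had the lowest adjusted p of any member. Its signal was 11.92, 12.03 and 12.24 log2 units in controls (lowest, median and highest of 6 arrays), 12.30, 12.47 and 12.17 in the 3 arrays at 10 nM, and 12.43, 12.57 and 12.69 at 100 nM. All arrays at 100 nM were above all controls, and the 10 nM arrays overlapped both groups. The change at 100 nM was 0.50 ± 0.07 log2 units (SE; 1.41-fold, adjusted p = 0.000731, limma), and at 10 nM it was 0.25 ± 0.09 (adjusted p = 0.0993).

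Pdia6, another isomerase, was at 13.40, 13.58 and 13.71 in controls, at 13.78, 13.85 and 13.77 at 10 nM, and at 13.84, 13.91 and 13.95 at 100 nM. No array of either dose overlapped the controls, and Pdia6 rose at both, by 0.36 ± 0.06 log2 units at 100 nM (adjusted p = 0.00182) and 0.25 ± 0.07 at 10 nM (adjusted p = 0.0416). Pdia3, the isomerase that works with the lectin chaperones, was at 13.79, 13.89 and 13.92 in controls, 13.94, 13.99 and 14.01 at 10 nM, and 13.98, 14.08 and 14.16 at 100 nM. It lay above the controls in every Insl3 array and passed the test at 100 nM only, with 0.20 ± 0.04 log2 units (1.15-fold, adjusted p = 0.0126), against 0.11 at 10 nM (adjusted p = 0.246). The weaker second probe set of Pdia3 had a change of -0.01 at 100 nM. P4hb, which also serves as the beta subunit of collagen prolyl 4-hydroxylase, was at 13.95, 14.00 and 14.22 in controls, 14.25, 14.26 and 14.19 at 10 nM, and 14.18, 14.29 and 14.37 at 100 nM. The highest control overlapped both doses, and P4hb rose at 100 nM by 0.25 ± 0.05 log2 units (adjusted p = 0.00928), with 0.20 at 10 nM (adjusted p = 0.0747; 0.0111 without control replicate 6).

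Ero1a, the oxidase that recharges the isomerases, was at 8.05, 8.27 and 8.31 in controls, 8.77, 8.70 and 8.66 at 10 nM, and 8.33, 8.50 and 8.67 at 100 nM. Both doses lay wholly above the controls, and the 10 nM arrays were near or above the top of the 100 nM range. Ero1a rose by 0.47 ± 0.08 log2 units at 10 nM (1.38-fold, adjusted p = 0.00211) and 0.24 ± 0.07 at 100 nM (1.18-fold, adjusted p = 0.0326). The difference between the doses, 100 nM minus 10 nM, was -0.23 log2 units (95% interval -0.40 to -0.06) and did not pass the test (adjusted p = 0.208). Its call at 10 nM held in all 15 fits with 1 array left out, whereas the call at 100 nM was lost in 7 of them. A weak second probe set of Ero1a had a change of -0.04 at 100 nM.

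The general chaperones Hsp90b1 and Hspa5 differed in call but not in direction. Hsp90b1, the lumenal Hsp90 also called Grp94, was at 13.26, 13.40 and 13.59 in controls, 13.56, 13.66 and 13.56 at 10 nM, and 13.59, 13.75 and 13.84 at 100 nM. It rose at 100 nM by 0.34 ± 0.06 log2 units (1.27-fold, adjusted p = 0.00443), every array being above every control, and changed by 0.18 ± 0.08 at 10 nM (adjusted p = 0.168). Hspa5, the Hsp70 of the lumen also called BiP and the usual marker of ER stress, was at 12.97, 13.06 and 13.12 in controls, 13.06, 13.21 and 13.12 at 10 nM, and 13.10, 13.25 and 13.38 at 100 nM. The groups overlapped, and its change of 0.18 ± 0.05 log2 units at 100 nM (1.13-fold, 95% interval 0.06 to 0.30) missed the threshold with an adjusted p of 0.0521. It passed in 2 of the 15 fits with 1 array left out, those without 100 nM replicate 5 or replicate 6, where the lowest adjusted p was 0.0349. At 10 nM the change of Hspa5 was 0.07 (adjusted p = 0.562).

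The lectin chaperones hold glycoproteins until they are folded, Calr as a soluble and Canx as a membrane protein. Canx was at 12.93, 13.03 and 13.24 in controls, 13.34, 13.39 and 13.27 at 10 nM, and 13.25, 13.31 and 13.43 at 100 nM. It rose at both doses with no overlap with controls, by 0.29 ± 0.07 log2 units at 10 nM (adjusted p = 0.0168) and 0.28 ± 0.06 at 100 nM (adjusted p = 0.00704). The difference between the doses, 100 nM minus 10 nM, was -0.01 log2 units (95% interval -0.15 to 0.14). Its other probe sets did not pass the test at either dose, with changes at 100 nM of 0.27 and 0.08. The probe set with 0.08 at 100 nM had a change of -0.43 at 10 nM. Calr was at 11.64, 11.85 and 12.01 in controls, 11.98, 12.09 and 12.07 at 10 nM, and 11.97, 12.16 and 12.38 at 100 nM. Calr overlapped the controls at 100 nM and rose by 0.33 ± 0.08 log2 units (adjusted p = 0.0176), with 0.19 at 10 nM (adjusted p = 0.262).

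Manf and Creld2 are secreted or lumenal proteins known chiefly as products of ER stress. Manf was at 11.08, 11.20 and 11.37 in controls, 11.44, 11.60 and 11.49 at 10 nM, and 11.41, 11.52 and 11.85 at 100 nM. It lay above the controls in every Insl3 array and rose at 100 nM by 0.37 ± 0.08 log2 units (1.29-fold, adjusted p = 0.0141), with 0.29 ± 0.10 at 10 nM (adjusted p = 0.0979). Creld2 was at 10.62, 10.71 and 10.77 in controls, 10.64, 10.92 and 10.76 at 10 nM, and 10.88, 10.92 and 10.99 at 100 nM. Its arrays at 100 nM were all above the controls while those at 10 nM were not, and it rose at 100 nM by 0.23 ± 0.05 log2 units (adjusted p = 0.0132), with 0.07 at 10 nM (adjusted p = 0.527).

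The J-domain co-chaperones hand unfolded clients to Hspa5 and start its ATP cycle. Dnajb11 was at 9.55, 9.63 and 9.65 in controls, 9.69, 9.84 and 9.66 at 10 nM, and 9.65, 9.86 and 9.97 at 100 nM. The lowest 100 nM array met the highest control. Dnajb11 rose at 100 nM by 0.22 ± 0.06 log2 units (adjusted p = 0.0339), a call that was lost in 9 of the 15 fits with 1 array left out (highest adjusted p = 0.0735). Dnajc3, which also restrains Perk, was at 9.65, 9.84 and 9.90 in controls, 9.62, 9.76 and 9.30 at 10 nM, and 9.81, 10.00 and 10.23 at 100 nM. It passed in neither comparison with control, where its changes were -0.26 at 10 nM (adjusted p = 0.16) and 0.19 at 100 nM (adjusted p = 0.209). Its difference between the doses, 0.45 ± 0.11 log2 units higher at 100 nM than at 10 nM (adjusted p = 0.0585), had the lowest adjusted p of the members in that comparison. It passed without 100 nM replicate 5 (adjusted p = 0.0273).

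The other 3 lumenal genes did not pass at either dose. Dnajb9 changed by 0.18 at 100 nM (adjusted p = 0.349) and 0.15 at 10 nM (adjusted p = 0.565). Sdf2l1, which binds the Dnajb11 complex, changed by 0.12 at 100 nM and 0.15 at 10 nM (adjusted p = 0.426 and 0.459). Hyou1, the nucleotide exchange factor of Hspa5, had a weak signal of 3.86 to 4.99 at 100 nM, against 4.16 to 5.38 in controls, and a change of -0.04 at 100 nM (95% interval -0.53 to 0.46).

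**Figure D2:**
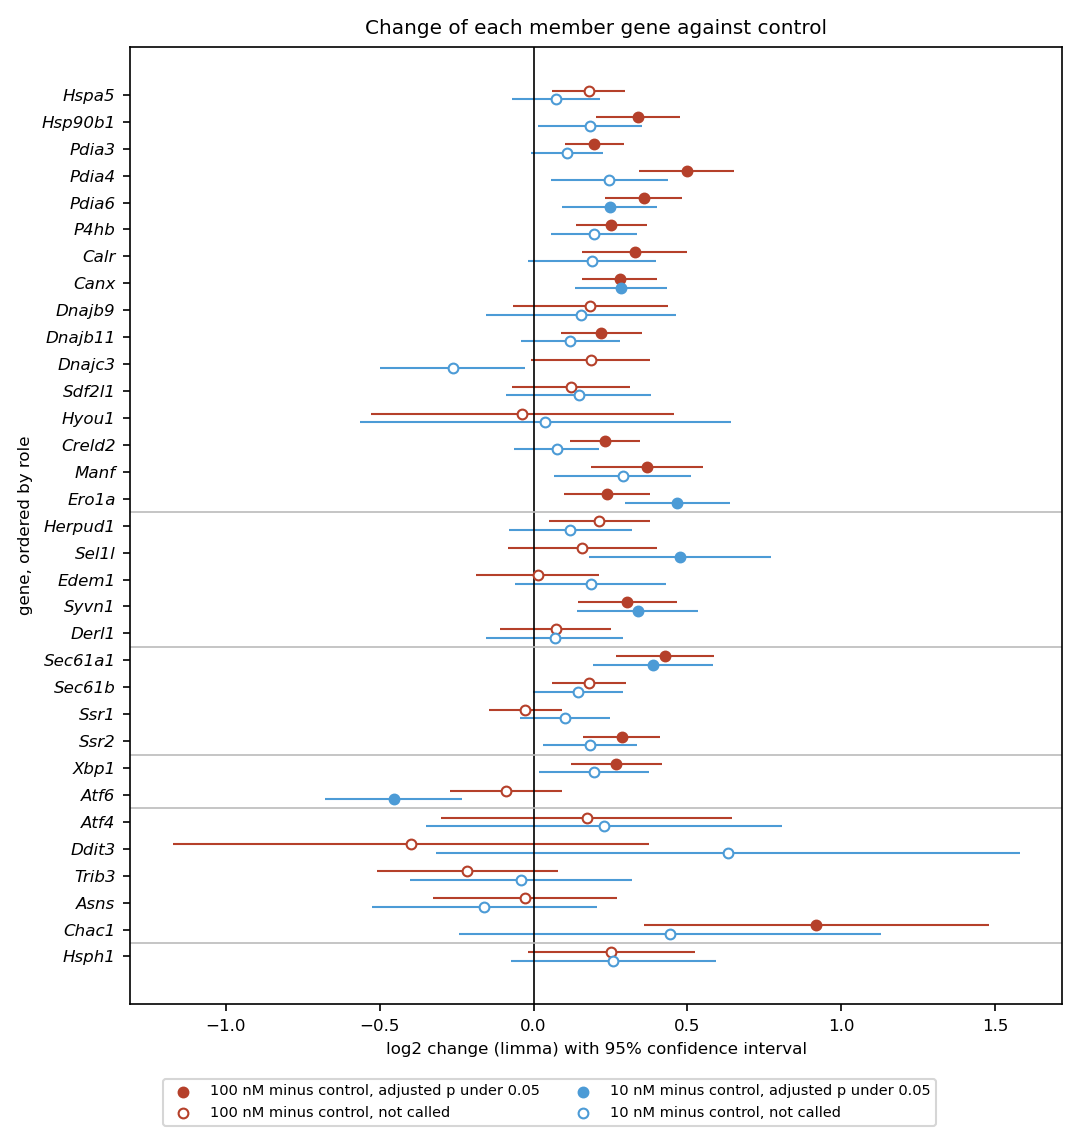
Log2 change of each member against control with its 95% confidence interval (limma), at 100 nM and 10 nM, in order of role; filled points passed an adjusted p under 0.05. At 100 nM the filled points lie mostly between 0.20 and 0.50 and belong to lumenal and translocon genes, Syvn1 and Xbp1, Chac1 stands farther out at 0.92, and Atf6 at 10 nM is the only filled point below 0.

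The class median per array showed the same separation. The median deviation of the 16 lumenal genes from their control means averaged 0.01 ± 0.07 in controls, 0.17 ± 0.05 with 10 nM and 0.26 ± 0.04 at 100 nM (SD, n = 6, 3 and 6). The 100 nM arrays, from 0.23 to 0.33, were all above the highest control at 0.13, and between 13 and 16 of the 16 genes were above their control mean in each of them. In the 5 Atf4 and Ddit3 type genes the same median ran from -0.22 to 0.31 at 100 nM, against -0.37 to 0.41 in controls, so the groups overlapped fully. The set-aside 10 nM replicates 4 and 5 had lumenal medians of 0.10 and -0.05, both within the control range. These medians hide single genes outside the control range on both sides. Below every control were, for example, Hspa5 (12.52 and 12.17), Hsp90b1 (12.99 and 12.86) and Pdia3 (13.51 and 13.35). Above every control were, for example, Sdf2l1 (10.86 and 10.29) and Hyou1 (5.70 and 5.68).

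**Figure D3:**
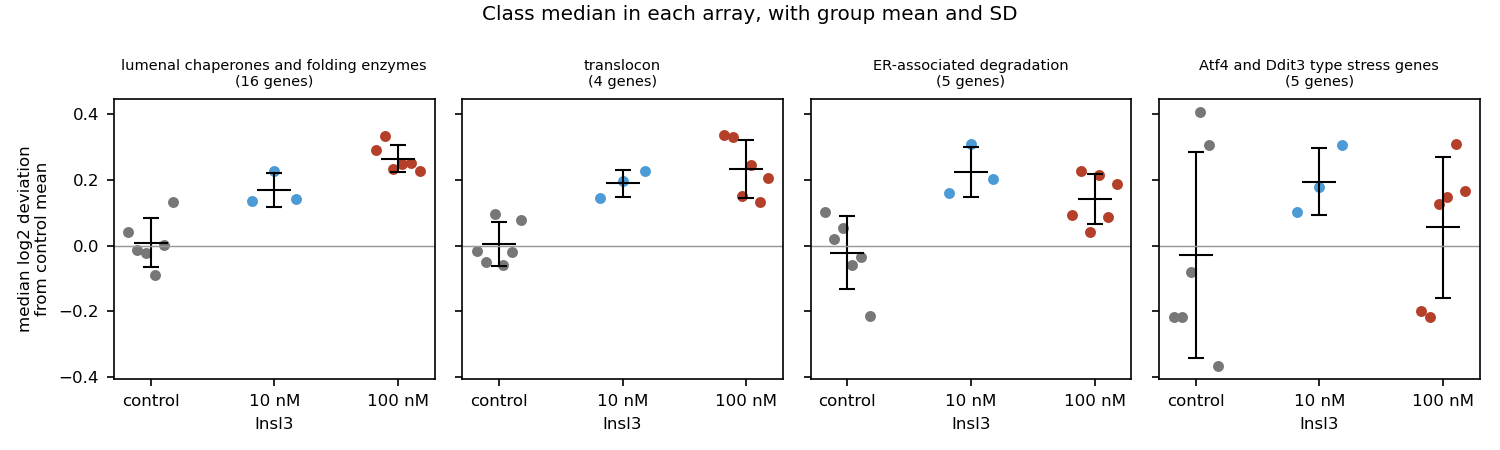
Median log2 deviation from the control means per array for 4 classes of member genes, by group (control, 10 nM, 100 nM), with the group mean and SD. The 6 lumenal medians at 100 nM lie between 0.23 and 0.33, above all controls, while the medians of the Atf4 and Ddit3 type genes at 100 nM lie inside the control range.

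In ER-associated degradation 1 of 5 genes rose at 100 nM, against 8.15% of all genes tested, and 2 of 5 at 10 nM, against 5.54%. Syvn1, the membrane ubiquitin ligase Hrd1, was at 8.48, 8.71 and 8.85 in controls, 9.03, 9.0 and 9.05 at 10 nM, and 8.74, 9.04 and 9.09 at 100 nM. The 10 nM arrays were closely grouped above the controls and only replicate 1 at 100 nM overlapped them. Syvn1 rose by 0.34 ± 0.09 log2 units at 10 nM (1.26-fold, adjusted p = 0.0299) and 0.30 ± 0.08 at 100 nM (1.24-fold, adjusted p = 0.0196). Sel1l, the adaptor that holds Hrd1 to its clients, was at 6.47, 6.76 and 7.10 in controls, 7.24, 7.36 and 7.11 at 10 nM, and 6.62, 6.89 and 7.23 at 100 nM. The 10 nM arrays were just above the highest control, and the 100 nM arrays overlapped the controls. Sel1l rose at 10 nM by 0.48 ± 0.14 log2 units (1.39-fold, adjusted p = 0.0408), a call lost in 8 of the 15 fits with 1 array left out, and changed by 0.16 at 100 nM (adjusted p = 0.406). The test of the difference between the doses did not pass (-0.32 log2 units, 100 nM minus 10 nM, adjusted p = 0.358).

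Herpud1, a stress-responsive scaffold of the Hrd1 complex, changed by 0.21 at 100 nM (95% interval 0.05 to 0.38, adjusted p = 0.0931), Edem1, which trims mannose from misfolded glycoproteins, by 0.01 and the channel component Derl1 by 0.07 (adjusted p = 0.954 and 0.643). Probe sets of the last pair disagreed. A second Derl1 probe set rose by 0.27 at 100 nM (adjusted p = 0.0319), while a second Edem1 probe set had a change of -0.40 (adjusted p = 0.068).

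At the translocon 2 of 4 genes rose at 100 nM, against 8.15% of all genes tested, and 1 of 4 at 10 nM, against 5.54%. Sec61a1, the pore of the channel, was at 12.06, 12.27 and 12.54 in controls, 12.79, 12.63 and 12.58 at 10 nM, and 12.64, 12.69 and 12.78 at 100 nM. Neither dose overlapped the controls, and Sec61a1 rose by 0.39 ± 0.09 log2 units at 10 nM (1.31-fold, adjusted p = 0.0131) and 0.43 ± 0.07 at 100 nM (1.35-fold, adjusted p = 0.0027). A second Sec61a1 probe set had a change of 0.18 at 100 nM (adjusted p = 0.242). Ssr2, a subunit of the translocon-associated protein complex, was at 12.59, 12.65 and 12.85 in controls, 12.82, 12.87 and 12.92 at 10 nM, and 12.88, 12.96 and 13.08 at 100 nM. It rose at 100 nM by 0.29 ± 0.06 log2 units (adjusted p = 0.00685), all arrays being above the controls, with 0.18 at 10 nM (adjusted p = 0.126). Sec61b, the small beta subunit of the channel, changed by 0.18 at 100 nM (adjusted p = 0.0528), and Ssr1, whose product is in the same complex as that of Ssr2, by -0.03 (adjusted p = 0.801). The weaker probe set of Ssr1 rose by 0.37 at 100 nM (adjusted p = 0.0334) and 0.43 at 10 nM (adjusted p = 0.0447), so the probe sets of Ssr1 disagree.

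Of the unfolded protein response transcription factors, Xbp1 rose at 100 nM and Atf6 fell at 10 nM. Xbp1, whose mRNA is spliced by Ire1, was at 12.29, 12.41 and 12.62 in controls, 12.60, 12.52 and 12.72 at 10 nM, and 12.57, 12.69 and 12.80 at 100 nM. The groups overlapped by the highest control, and the change at 100 nM was 0.27 ± 0.07 log2 units (1.20-fold, adjusted p = 0.0233), with 0.20 at 10 nM (adjusted p = 0.17). The call at 100 nM was lost in 2 of 15 fits with 1 array left out, without control replicate 4 or 100 nM replicate 2 (highest adjusted p = 0.0548). The signal does not separate the spliced and unspliced forms of Xbp1.

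Atf6, the membrane-bound factor that is cleaved to become active, was at 10.32, 10.36 and 10.54 in controls, 10.03, 10.09 and 9.73 at 10 nM, and 10.04, 10.35 and 10.50 at 100 nM. The 10 nM arrays were all below the controls, and the set-aside 10 nM arrays were lower still at 9.40 and 9.62. Among the genes that rose at 10 nM, only Ero1a had both set-aside arrays above all controls. Atf6 fell by 0.45 log2 units at 10 nM (SE 0.10, 1.37-fold lower, adjusted p = 0.0119), a call lost only without 10 nM replicate 3 (adjusted p = 0.0931). At 100 nM its change was -0.09 (adjusted p = 0.553), and the difference between the doses, 0.37 log2 units higher at 100 nM, did not pass (adjusted p = 0.106; 0.0466 without 100 nM replicate 4). The second probe set of Atf6 lay near the background floor.

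The 5 Atf4 and Ddit3 type members gave no common change. At 100 nM 1 of 5 rose, against 8.15% of all genes tested, with a median log2 change of -0.03 (0.43 with the erythroid covariate). At 10 nM 0 of 5 passed (0 at an unadjusted p under 0.05, limma), where 8.67% of all genes tested passed in either direction. Of the 31 other Atf4 targets and amino acid genes given below, 8 rose and 0 fell at 100 nM (median 0.24). At 10 nM 10 of these rose and 1 fell, so the 5 members do not speak for all Atf4 targets. Ddit3, the pro-apoptotic factor CHOP, was at 7.35, 7.79 and 8.13 in controls, 8.41, 8.05 and 8.60 at 10 nM, and 5.90, 7.77 and 8.12 at 100 nM. The 100 nM replicates 1 and 2 were at 5.90 and 6.29, below every control, and the other 4 were between 7.57 and 8.12. The change of Ddit3 was -0.40 ± 0.36 log2 units at 100 nM (95% interval -1.17 to 0.37, adjusted p = 0.525) and 0.63 ± 0.44 at 10 nM (95% interval -0.32 to 1.58, adjusted p = 0.426), intervals that allow a change in either direction.

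Chac1, a glutathione-degrading enzyme raised by Atf4, rose 1.89-fold at 100 nM from a low signal. It was at 2.64, 3.19 and 3.86 in controls, 3.78, 3.74 and 3.54 at 10 nM, and 3.73, 4.02 and 4.77 at 100 nM. The groups overlapped, and the change was 0.92 ± 0.26 log2 units (95% interval 0.36 to 1.48, adjusted p = 0.0379). The call was lost in 10 of the 15 fits with 1 array left out (highest adjusted p = 0.0817). Within the sets of replicates the change was 1.68 log2 units in replicates 1, 2 and 6 (controls between 2.64 and 2.80) and 0.16 in replicates 3, 4 and 5 (controls between 3.59 and 3.86), and it passed in neither set (adjusted p = 0.0972 and 0.458). The difference between the sets was not tested.

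Atf4 itself was at 11.91, 13.40 and 13.50 in controls, 13.21, 13.29 and 13.52 at 10 nM, and 13.17, 13.27 and 13.51 at 100 nM. Its change of 0.17 ± 0.22 at 100 nM (adjusted p = 0.67) is taken against a control group in which replicate 6 was far below the rest. Without that replicate the change was -0.07 (adjusted p = 0.668). Asns, which makes asparagine, changed by -0.03 ± 0.14 (95% interval -0.33 to 0.27, adjusted p = 0.933). Trib3, a pseudokinase that inhibits Ddit3 and Atf4, was near the lowest value of its probe set in most arrays, from 2.51 to 2.55 at 100 nM, against 2.53 to 3.23 in controls, and its change was -0.22 (adjusted p = 0.345).

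**Figure D4:**
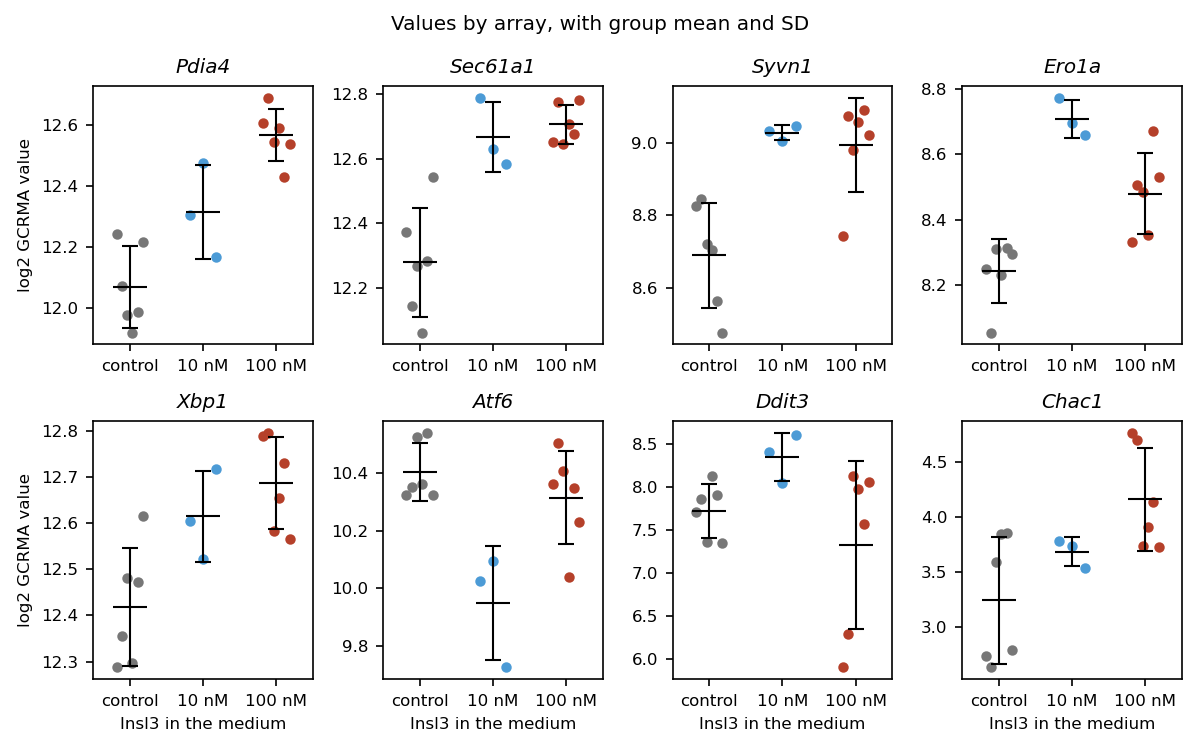
Log2 GCRMA values of 8 members by array, in controls, at 10 nM and at 100 nM, with group mean and SD (n = 6, 3 and 6). Pdia4 and Sec61a1 lie above all controls at 100 nM, Atf6 lies below all controls at 10 nM, and Ddit3 and Chac1 split within the groups, with Ddit3 at 5.90 and 6.29 in 2 arrays at 100 nM.

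Hsph1, the cytosolic Hsp110 that recharges Hsp70, did not pass at either dose. It was at 10.63, 10.91 and 11.58 in controls, 11.38, 11.25 and 11.12 at 10 nM, and 11.07, 11.26 and 11.48 at 100 nM. Its changes were 0.25 ± 0.13 log2 units at 100 nM (adjusted p = 0.225) and 0.26 ± 0.15 at 10 nM (adjusted p = 0.341). The highest control, replicate 6, lay above all Insl3 arrays, and without it both comparisons passed (adjusted p = 0.0122 and 0.0267).

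At 10 nM the members moved as in the paragraphs above but with fewer calls. Against control, 6 of 33 rose (Pdia6, Canx, Ero1a, Sel1l, Syvn1 and Sec61a1) and 1 fell (Atf6), where 5.54% of all genes tested rose and 3.13% fell (8.67% in either direction). The median change was 0.18, against 0.06 over all genes tested. The 10 nM arrays lay wholly above the controls for 9 members, against 10.2% of all genes tested, and wholly below them for 1 (Atf6), against 4.67%. Of the genes that rose, Ero1a had both set-aside replicates 4 and 5 above every control (8.46 and 8.36). Pdia6 (13.67 and 13.45), Canx (13.11 and 12.97) and Sel1l (6.75 and 6.42) had neither above. Syvn1 and Sec61a1 had only replicate 4 above. Between 2 and 9 members passed when 1 array was left out. The count was 2 without 10 nM replicate 1, 3 without replicate 2 or replicate 3, 4 without control replicate 5, and 9 without control replicate 6. The share of all genes tested that rose moved too, to 3% without 10 nM replicate 1 and 7.72% without control replicate 6.

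Both comparisons with control use the same 6 control arrays, so the calls they share are given as values only. Pdia6, Canx, Ero1a, Syvn1 and Sec61a1 rose at both doses, 11 genes passed at 100 nM only, Sel1l and Atf6 at 10 nM only, and 15 at neither. The share of all genes tested in each of these categories was not computed, so the counts are not read against it. No member passed in the direct comparison of 100 nM with 10 nM (4 higher and 3 lower at an unadjusted p under 0.05, limma), where 0.778% of all genes tested passed, 0.628% as higher and 0.15% as lower. A gene that passed at 1 dose only is therefore not shown to differ between the doses.

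Other genes of the same pathway, 128 tested of 140 listed, were taken from lists that hold no member. In the direct comparison of 100 nM with 10 nM 2 of the 128 passed, where 0.778% of all genes tested passed. Of these, 1 was higher, among the translocation and glycosylation genes, and 1 was lower, among the Atf4 targets and amino acid genes. The other folding and glycan-processing genes were higher as the members were, with 15 of 27 higher and 0 lower at 100 nM (median log2 change 0.25), and 7 of 27 higher and 0 lower at 10 nM. Over all genes tested 8.15% rose and 3.98% fell at 100 nM, and 5.54% rose and 3.13% fell at 10 nM. Fkbp11, a prolyl isomerase of secretory cells, averaged 9.32 ± 0.14 at 100 nM and 8.61 ± 0.14 in controls and rose 1.64-fold (0.71 ± 0.08 log2 units, adjusted p = 8.13e-05), with 0.51 at 10 nM (adjusted p = 0.00384). Fkbp7, of the same family, rose 1.39-fold and Sil1, a nucleotide exchange factor of Hspa5, 1.35-fold at 100 nM (adjusted p = 0.000535 and 0.0172). At 10 nM Fkbp7 rose by 0.35 log2 units (adjusted p = 0.0127) and Sil1 did not pass (adjusted p = 0.191). Tmx1, a membrane-bound isomerase, rose by 0.42 log2 units at 10 nM (adjusted p = 0.0029) and by 0.42 at 100 nM (adjusted p = 0.000863).

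Among the other degradation genes 3 of 15 rose and 2 fell at 100 nM (median 0.07), where 8.15% of all genes tested rose and 3.98% fell. At 10 nM 0 passed (4 higher and 1 lower at an unadjusted p under 0.05, limma), where 8.67% of all genes tested passed in either direction. Selenos and Man1b1 rose by 0.33 and 0.31 log2 units at 100 nM (adjusted p = 0.0424 and 0.0442). Edem2, which starts mannose trimming, fell by 0.47 (adjusted p = 0.0238). Among the other translocation and glycosylation genes 8 of 24 rose and 1 fell at 100 nM (median 0.16), against 2 and 1 at 10 nM. The share higher was 33.3% at 100 nM and 8.33% at 10 nM, against 8.15% and 5.54% of all genes tested. The signal peptidase subunit Spcs3 rose by 0.38, the channel paralogue Sec61a2 by 0.34 and the oligosaccharyltransferase subunit Rpn2 by 0.31 (adjusted p = 0.0443, 0.0173 and 0.0225). Srp72, of the signal recognition particle, averaged 10.37 ± 0.17 at 10 nM and 11.11 ± 0.04 in controls and fell by 0.75 log2 units (SE 0.09, adjusted p = 0.000322), and at 100 nM it fell by 0.27 (adjusted p = 0.0371). Srpra, the receptor of that particle, rose by 0.21 at 10 nM (adjusted p = 0.0335) and by 0.22 at 100 nM (adjusted p = 0.00942).

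Of 11 sensors and regulators 3 rose at 100 nM and 1 at 10 nM, with none lower, against 8.15% and 5.54% of all genes tested. Creb3l1, a membrane-bound factor of collagen-secreting cells, averaged 9.55 ± 0.20 in controls, 10.25 ± 0.13 at 10 nM and 10.16 ± 0.19 at 100 nM. It rose 1.62-fold at 10 nM (adjusted p = 0.0035) and 1.52-fold at 100 nM (adjusted p = 0.00275). Mbtps1, a protease that cleaves Atf6 and Creb3-type factors, rose by 0.29 and Creb3 by 0.26 log2 units at 100 nM (adjusted p = 0.0353 and 0.0194).

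Other Atf4 targets and amino acid genes included several that rose at both doses. Of 31 tested, 8 rose (25.8%) and 0 fell at 100 nM (median 0.24), where 8.15% of all genes tested rose and 3.98% fell. At 10 nM 10 rose (32.3%) and 1 fell (median 0.28), where 5.54% of all genes tested rose and 3.13% fell. The share higher among the lumenal members was 68.8% at 100 nM and 18.8% at 10 nM. The stress-induced chromatin protein gene Nupr1 averaged 8.03 ± 0.50 at 100 nM and 6.02 ± 0.49 in controls and rose 4.02-fold (adjusted p = 0.000168), with 3.64-fold at 10 nM (adjusted p = 0.00144). The lipoprotein receptor gene Vldlr rose 2.13-fold at 100 nM and 2.21-fold at 10 nM (adjusted p = 4.19e-05 and 0.000251). Cebpb, a transcription factor of inflammation and differentiation, rose 1.82-fold at 100 nM (adjusted p = 8.57e-05), with 0.67 log2 units at 10 nM (adjusted p = 0.00259).

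Other cytosolic heat shock genes gave 0 calls of 20 at 100 nM (4 higher and 1 lower at an unadjusted p under 0.05, limma; median 0.03), where 12.1% of all genes tested passed in either direction. At 10 nM Dnaja1, a cytosolic J-domain co-chaperone, rose by 0.17 log2 units (adjusted p = 0.0473) and was the only one of the 20 to pass. Its change at 100 nM was 0.12 (adjusted p = 0.0831).

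**Figure D5:**
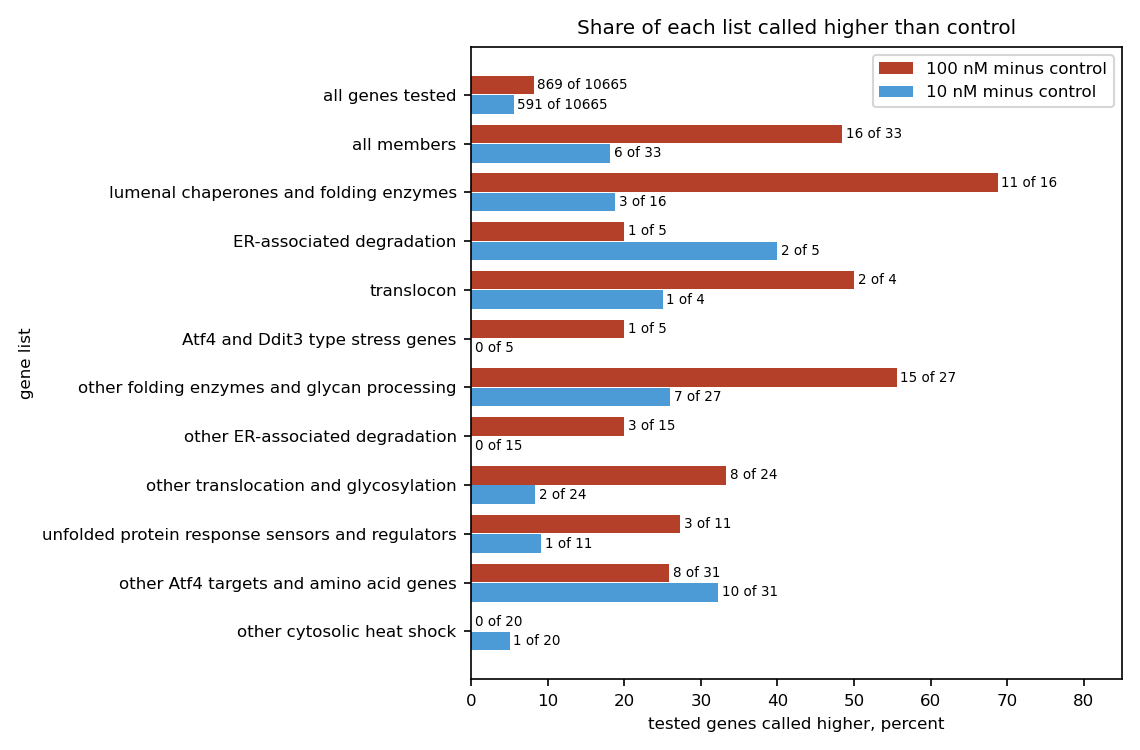
Share of the tested genes of the classes and lists shown, in percent, that rose at 100 nM and at 10 nM against control. The count stands beside each bar and the share over all genes tested at the top. The member classes of unfolded protein response transcription factors and cytosolic heat shock genes are left out. At 100 nM 11 of the 16 lumenal members and 15 of 27 other folding genes rose, against 8.15% of all genes tested, while none of the other cytosolic heat shock genes did.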

How the data were processed

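Total RNA of 17 cultures was hybridised to Affymetrix arrays. The deposited table holds log2 signals, which the authors computed for each probe set with GCRMA, per the submitters' processing notes. The GCRMA version was not given in the sources used here. The base of the logarithm is taken from the scale GCRMA writes and from the range of the values, 2.11 to 16.9.

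The 15 arrays that the labels do not mark as outliers entered 1 limma 3.58.1 model for all 3 groups (lmFit, eBayes) in R 4.3.3, with no block. Of 31099 probe sets, 57 controls were left out, and 18938 with a value above 2.28 (the 40th percentile) in at least 3 arrays were tested, with 2-sided p-values adjusted by the Benjamini-Hochberg method over all of them. The probe set with the highest mean stood for a gene. The number of arrays limits the precision. The fit was tested on simulated data.

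Member genes called in any comparison are given with their values by array. From each list of other pathway genes up to 3 called at 100 nM and up to 2 called at 10 nM, with the largest changes, are named. The members and lists were chosen with earlier results of these data known. Alternatives changed the filter, normalization, variance model, samples, block and covariates. Probe sets assigned to several genes were left out. Promoter windows are from RefSeq, GRCr8.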

Additional observations from a re-analysis of the deposited data

Results flagged for a closer look

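In 6 of 66 combinations of a member gene and a group of 6 arrays, the highest or lowest array lay farther from its nearest neighbour, relative to the group's range, than Dixon's 95% critical value, which chance exceeds in about 1 in 20 groups. Control replicate 6 accounted for 4 of the 6, being lowest for Dnajb9 (9.55), Edem1 (10.46) and Atf4 (11.91) and highest for Hyou1 (5.38). Control replicate 2 was lowest for Ero1a (8.05), and 100 nM replicate 1 was lowest for Syvn1 (8.74). Without control replicate 6, 16 members passed at 100 nM and 9 at 10 nM. In that fit 9.86% and 7.72% of all genes tested rose, against 8.15% and 5.54% with control replicate 6 included.

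The 10 nM arrays that were set aside held class medians above every control for the translocon, 0.33 in replicate 4 and 0.19 in replicate 5, as deviations from the control means. The median of the degradation genes was 0.21 in replicate 4. The median of the Atf4 and Ddit3 type genes was 0.42 in replicate 5, although Atf4 itself was low in both arrays, at 11.51 and 11.73. These arrays also had the lowest cRNA yields of the series, 25.66 and 33.68 µg, and the part of that in these values was not tested.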

How the results depend on the processing

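No result turned round under any alternative in a case where it passed the test. The lumenal median at 100 nM was 0.20 to 0.26 over all alternatives. The number of members that passed at 100 nM, 16 as reported, was 12 to 17 when 1 array was left out. It was 10 with a replicate block, 0 in replicates 1, 2 and 6 alone, 8 in replicates 3, 4 and 5 alone and 0 with the erythroid covariate. At 10 nM, 7 as reported, it was 3 with only the 2 groups compared in the fit, 4 with a replicate block, 4 with the mean of a gene's probe sets, and 2 to 9 when 1 array was left out. Between 100 nM and 10 nM, 0 as reported, it was 2 with all 17 arrays (Dnajc3 and Atf6), 2 with the division of replicates as a term (Dnajc3 and Pdia4), and 0 to 1 when 1 array was left out.

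Over all probe sets, 2065 passed at 100 nM as reported, 1008 with all 17 arrays, 110 in replicates 1, 2 and 6 alone, 679 with the erythroid covariate and 1442 to 2616 when 1 array was left out. At 10 nM 2004 passed as reported and 1020 to 2495 when 1 array was left out. Between the doses 271 passed as reported, 22 with no filter on low values, 3 with only the 2 groups compared, 429 with a replicate block, 531 with the division of replicates as a term, 57 with the mean of a gene's probe sets and 3 to 619 when 1 array was left out (3 without 10 nM replicate 3). Replicates 3, 4 and 5 alone, with as many arrays as replicates 1, 2 and 6, gave 1691 at 100 nM. The cause of these differences was not tested.

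The translocon median moved to 0.26 at 10 nM with all 17 arrays, to 0.31 and 0.16 at 100 nM in replicates 1, 2 and 6 and in replicates 3, 4 and 5, and to -0.031 between the doses with the erythroid covariate. The degradation median at 100 nM moved to 0.27 in replicates 3, 4 and 5 and to 0.034 with the erythroid covariate, and the median of the Atf4 and Ddit3 type genes to 0.43 with that covariate. At 10 nM the Atf4 and Ddit3 type genes had a median of -0.011 to 0.306 when 1 array was left out. Equal replicate numbers were not shown to pair the samples 1 to 1. The correlation of their deviations was above 0.1 in 6 of 12 pairs. Of 6 arrays at 100 nM 2, and of 6 controls 1, correlated best with their own number. The numbers do carry shared structure, as replicates 1, 2 and 6 stood apart from replicates 3, 4 and 5 in both groups. In the pairs of 100 nM and control the correlation was 0.0068 to 0.20. The labels name no batch for this, so the block stands here as an alternative, and 10 members passed with it at 100 nM. Low signals near the background floor, as in Trib3 and Chac1, limit what can be read from those genes.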
